A study of Schizothorax plagiostomus with 18 samples.

Results

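Among 135031 features measured by RNA sequencing of snow trout (Schizothorax plagiostomus) gonads, 39 were present in both testis and ovary, stood at similar mean levels in pre-spawning and spawning testes, and were lower in post-spawning testes. A feature is a transcript or a cluster of transcripts in the authors' deposited count table. The 39 were selected on measured levels as counts scaled to the same total in every library (CPM, counts per 1e+06). The testis and ovary means had to lie within 16-fold of each other. Pre-spawning and spawning testis means had to reach 10 CPM each, stand at least 4-fold above the post-spawning mean, and differ from each other by at most 2-fold. Every pre-spawning and spawning testis had to exceed every post-spawning testis, and features were dropped if testis over ovary was at least 4 at one stage and at most 0.25 at another. The stage levels in testis given here are therefore a description of what was chosen, and nothing is supported with tests of the same contrasts.

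The groups were pre-spawning, spawning and post-spawning testes of males, and pre-spawning, spawning and post-spawning ovaries of females, with 3 libraries in each of the 6 groups. The labels assign the libraries of each group to seasons 1, 2 and 3, and the season number is used here as the library's number. No age, strain or treatment is given, and the labels do not say whether each library is a different fish, so the p-values speak only for variation among these samples, part of which may be technical. Features are not paired with gene names in the files, so no feature can be given a function and no sequence is shown.

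In bony fish, germ cells of the testis develop in cysts enclosed by Sertoli cells, passing from spermatogonia through spermatocytes and spermatids to sperm. In seasonal breeders the testis is filled with late germ cells and sperm towards spawning, and afterwards it empties and regresses while spermatogonia and supporting cells persist. The mix of cells in a testis thus differs between stages, and in whole gonads fewer cells of a type and less RNA per cell cannot be told apart. Snow trouts belong to a lineage of polyploid cyprinids, in which closely similar copies of a gene are common.

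Totals ranged from 24682616 to 52676056 counts in testes and from 14604277 to 47801904 in ovaries, so the floor of 3 counts lay between 0.057 and 0.205 CPM. Before the condition on loss, 9186 features met the limits on gonad ratio, level and steadiness up to spawning, and they serve below as a background. Of these, 82 were at least 4-fold lower after spawning, 42 also had no overlap of libraries, and 3 of the 42 were dropped for a reversed gonad ratio. Spawning testis 3 stood apart in the levels of the 39 features, and post-spawning ovary 1 did so among the ovaries.

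None of the 39 was absent after spawning, which is in part set by the selection. The filter on reversed gonad ratios removed cluster70867, whose post-spawning testis mean was 0 CPM. Post-spawning testis means ran from 0.564 to 19.0 CPM with a median of 3.18, and the lowest value in any post-spawning testis, 0.277 CPM for cluster2203, was above the floor. Pre-spawning means had a median of 22.1 CPM (range 12.4 to 123) and spawning means a median of 18.6 CPM (range 10.1 to 147). Post-spawning means were lower than spawning means by a median of 6.26-fold (4.07 to 32.4) and lower than pre-spawning means by a median of 8.33-fold (4.10 to 28.5). The spawning mean was above the pre-spawning mean for 17 of the 39. Spawning means rested largely on 1 library: in 27 of the 39, spawning testis 3 held over 50% of the summed spawning CPM. The 39 were features of modest abundance, and together they took 698 to 1716 CPM in pre-spawning, 564 to 2369 CPM in spawning and 148 to 171 CPM in post-spawning testes.

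**Figure D1:**
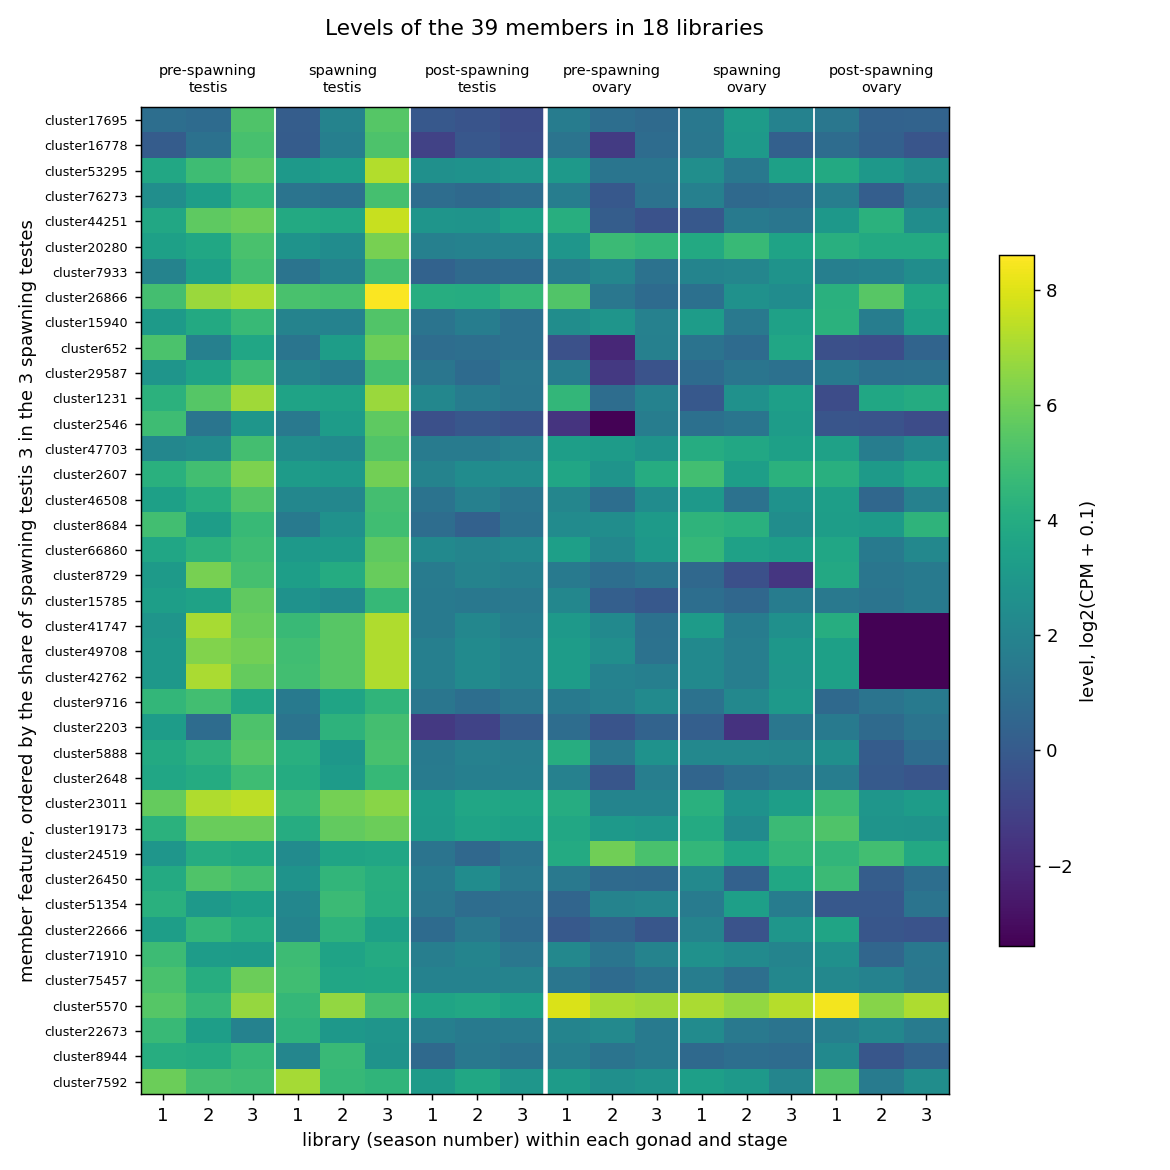
Levels of the 39 features (rows) in 18 libraries (columns, grouped by gonad and stage) as log2(CPM + 0.1), with rows ordered by the share of spawning testis 3 in the summed level of the 3 spawning testes. Post-spawning testes are lower than all other testes in every row, pre-spawning testis 3 and spawning testis 3 hold most of the high values in the upper rows, and cluster5570 is high in all 9 ovaries.

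The most abundant of them was cluster26866, a cluster of 2 transcripts. It stood at 32.1, 111 and 138 CPM in pre-spawning testes 1, 2 and 3, at 35.2, 32.8 and 374 CPM in spawning testes and at 16.9, 16.3 and 23.9 CPM in post-spawning testes. The high spawning mean rested on testis 3, and spawning testes 1 and 2 lay just above the post-spawning testes. Next was cluster23011, also of 2 transcripts, with 53.9, 146 and 168 CPM before spawning, 25.9, 68.9 and 89.4 CPM at spawning and 9.17, 13.1 and 12.3 CPM after it. Here the level was lower at each later stage, with a spawning mean at 0.5 times the pre-spawning mean, the lower limit allowed.

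The deepest loss was that of cluster2203, made of 11 transcripts, at 9.17, 1.68 and 37.4 CPM in pre-spawning, 2.26, 20.2 and 32.3 CPM in spawning and 0.277, 0.408 and 1.01 CPM in post-spawning testes. Its post-spawning mean was 32.4-fold lower than the spawning mean and 28.5-fold lower than the pre-spawning mean, and its libraries within a stage differed by up to 22.3-fold before spawning. The feature cluster16778 stood at 0.983, 2.04 and 34.1 CPM before, 0.951, 3.28 and 37.6 CPM at and 0.383, 0.815 and 0.589 CPM after spawning. Its pre-spawning and spawning season 3 libraries were far above all other testes. The testis 1 libraries of these earlier stages were just above the highest post-spawning testis. Another feature, cluster17695, had the same profile, with 39.4 and 43.4 CPM in pre-spawning and spawning testis 3 and at most 3.82 CPM in any other testis; it is named for that likeness, seen in the values.

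**Figure D2:**
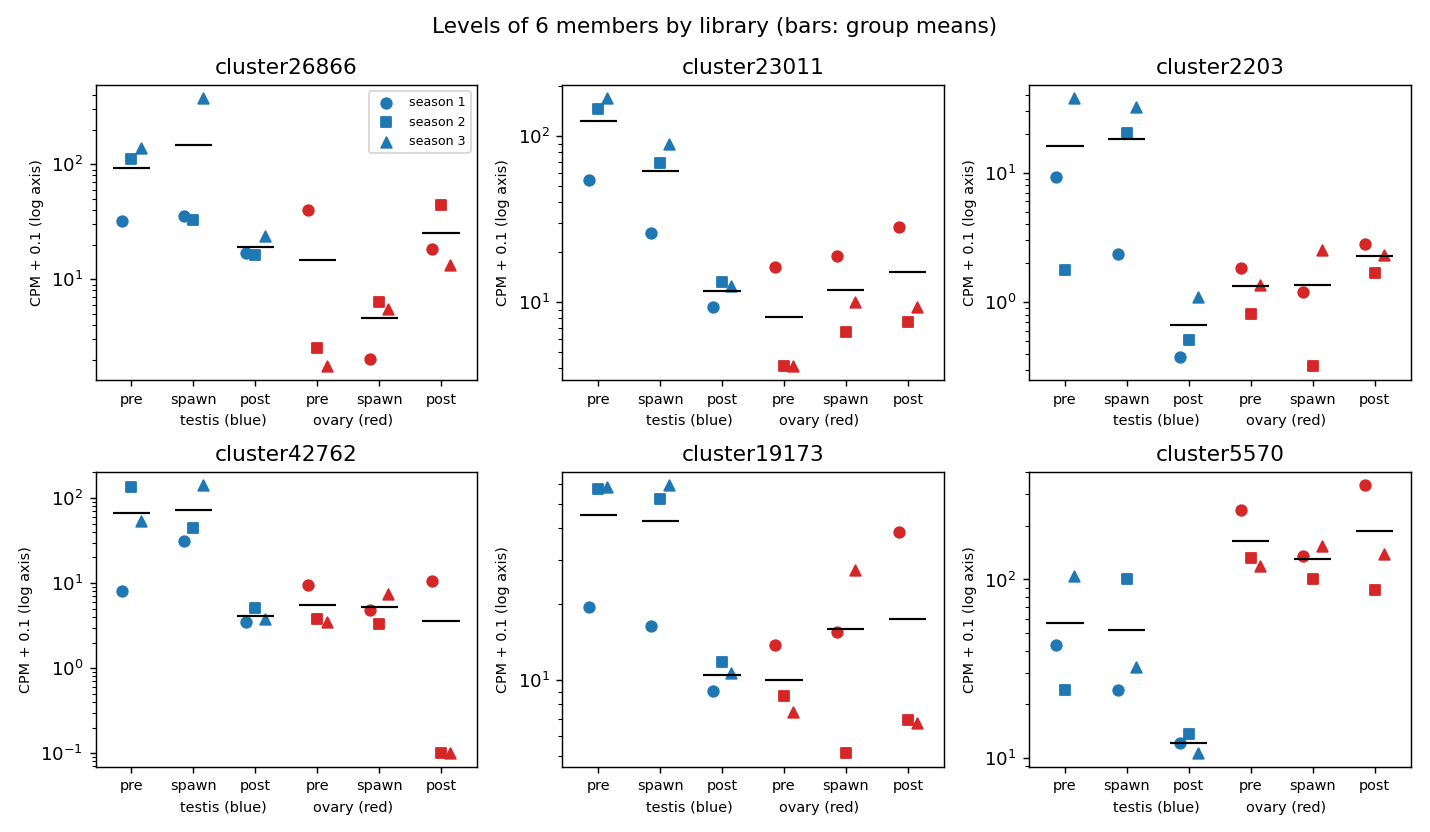
CPM + 0.1 on a log axis for 6 of the features in each library, testes in blue and ovaries in red, with a symbol for each season and a bar at each group mean. The highest spawning testis of cluster26866 and of cluster2203 is that of season 3, cluster42762 is at 0 in post-spawning ovaries 2 and 3, and cluster5570 is higher in every ovary than in every post-spawning testis.

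The steadiness of the means up to spawning hid a wide spread between libraries. The highest of the 3 spawning testes exceeded the lowest by a median of 6.33-fold across the 39, against a median of 2.04-fold across the background of 9186 features. Before spawning the medians were 4.03-fold for the 39 and 1.73-fold for the background, and after spawning 1.45-fold and 1.26-fold. The spread passed 4-fold for 31 of the 39 at spawning and for 20 before spawning. After spawning 2 features passed 2-fold, cluster2203 and cluster16778. The rule used these libraries and the background was not chosen for a loss, so the comparison describes the selection.

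This spread had a direction that was common to most of the features. Here too the values are those the rule used, and a single high library can carry a feature past its limits. The shares beside the background are therefore a description of the chosen set. Spawning testis 3 was the highest spawning library for 30 of the 39 (76.9%, against 28.2% in the background), and pre-spawning testis 3 was the highest before spawning for 24 (61.5%, against 18.8%). Both held for 21 features. On the log2(CPM + 0.1) scale the median deviation from the group mean was 1.45 in spawning testis 3, -0.54 in testis 2 and -1.05 in testis 1. The background deviated by 0.02, -0.27 and 0.25 in the same libraries. In 27 of the 39, spawning testis 3 held more than 50% of the summed CPM of the spawning testes. A few features ran the other way: cluster7592 was highest in testis 1, at 125 CPM in spawning testis 1 against 24.7 and 22.0 CPM in testes 2 and 3, and cluster22673 was highest in testis 1 both before spawning (25.7 CPM) and at spawning (21.3 CPM).

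**Figure D3:**
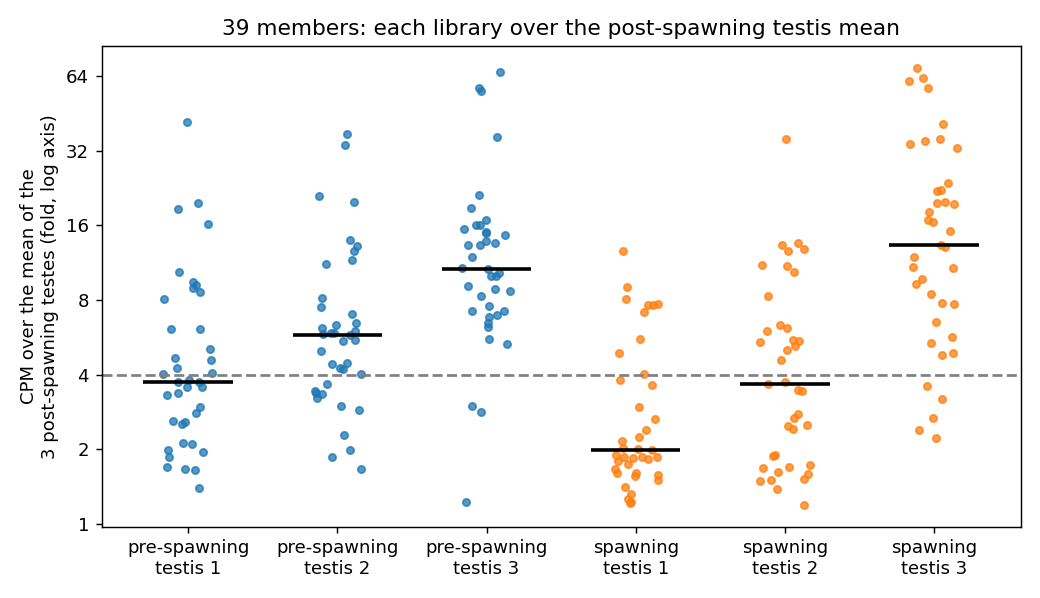
Level of each of the 39 features in each pre-spawning and spawning testis, divided by its mean over the 3 post-spawning testes, on a log axis; bars are medians and the dashed line marks 4-fold. The medians are 3.74, 5.76 and 10.6 in pre-spawning testes 1, 2 and 3 and 1.99, 3.66 and 13.4 in spawning testes 1, 2 and 3.

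The rule used the testis libraries, so the 4-fold counts given here describe the selection, and shares over all features were not computed. Set against the post-spawning mean library by library, spawning testis 3 was at least 4-fold higher for 34 of the 39 features, testis 2 for 18 and testis 1 for 10. Pre-spawning testes 3, 2 and 1 were at least 4-fold higher for 36, 28 and 18. No feature reached 4-fold in all 6 of these libraries. All 3 spawning testes reached it for 4 features, cluster41747, cluster42762, cluster49708 and cluster2203, and for 15 only spawning testis 3 did. When spawning testis 3 was left out of the rule, 13 of the 39 still met it, among 19 features in all. Leaving out all 3 season 3 testes, an alternative added after the data were seen, gave 47 features, of which 10 were among the 39.

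Each season taken alone has a single library per stage and therefore no replicate. The post-spawning library was at most 0.25 of the spawning library for 11 features in season 1, 19 in season 2 and 34 in season 3. The share of all 51080 features tested in testes that met this was 9.99%, 5.46% and 8.94%. Against the pre-spawning library the counts were 19, 29 and 36, with 21.9%, 13.3% and 20.1% of all features. The median fold of spawning over post-spawning testis was 2.34, 3.76 and 13.2 in seasons 1, 2 and 3. The rule used these libraries, so the counts and folds describe the selection and nothing is read from them.

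The rule used both testis contrasts, so the calls given here describe how the chosen features fared in fits across all features, and nothing is read from them. Post-spawning against spawning testes, edgeR's quasi-likelihood test called 0 of the 39 lower at an adjusted p under 0.05 (0.0176% of all 51080 features were called lower). DESeq2 called 34 (2.91% of all), and at an unadjusted edgeR p under 0.05 all 39 were lower (9.4% of all). Against pre-spawning testes edgeR called 8 lower (2.97% of all), DESeq2 28 (11% of all), and 34 were lower at an unadjusted edgeR p under 0.05 (18.3% of all). With no low-count filter edgeR called all 39 in both contrasts, beside 2865 and 4968 called lower of all 126519 features. The number called thus depended on the tool and the filter. Without spawning testis 3 the median edgeR log2 fold change of the 39 against spawning testes was -1.96, in place of -2.69, and 23 were lower at an unadjusted p under 0.05. In that fit 4529 of all 54284 features were lower at that p. Without pre-spawning testis 1 the 8 became 20, and the calls over all features became 5021 lower of 53659. The 8 became 0 when pre-spawning testis 2, pre-spawning testis 3 or any single post-spawning testis was left out, and the lower calls over all features were then between 1 and 55.

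The scaling of libraries mattered for the pre-spawning contrast. On the log2(CPM + 0.1) scale and in plain CPM, the median feature tested in testes had a log2 ratio of post-spawning over pre-spawning mean of -0.71, and with TMM-scaled CPM this was -0.11. The median of the 39 moved with it, from -3.00 in plain CPM to -2.40 in TMM-scaled CPM, and 25 of the 39 instead of 39 were then at least 4-fold lower. All 39 were lower after spawning under both scalings. The rule applied to TMM-scaled CPM found 22 features, 18 of them among the 39. Post-spawning over spawning was little affected, with a median of -2.61 in plain and -2.60 in TMM-scaled CPM.

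Several features were close relatives of each other by identifier. Transcript identifiers consist of a stem and a transcript number, and 9 of the 39 shared a stem with another of the 39. The single-transcript features cluster42762, cluster41747 and cluster49708 formed a trio, at 142 CPM each in spawning testis 3 and 44.2 CPM each in spawning testis 2. In spawning testis 1 they stood at 30.8, 26.5 and 30.3 CPM, and in post-spawning testes between 2.85 and 5.02 CPM. They were less alike before spawning. In pre-spawning testes 1, 2 and 3 cluster42762 stood at 7.89, 136 and 53.7 CPM. There cluster41747 stood at 7.25, 129 and 55.2 CPM, and cluster49708 at 7.89, 79.2 and 67.0 CPM. Over the 16 libraries with a ratio, cluster49708 over cluster42762 ran from 0.580 to 1.53, and cluster41747 over cluster42762 from 0.608 to 1.90. Counts of cluster49708 and cluster42762 were equal and above 0 in 6 of 18 libraries. Reads that cannot be assigned to a single copy may be divided between such features, so the trio is not evidence from 3 separate genes and the level of each is uncertain.

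The other groups of relatives were less alike, except for one pair. The ratio of cluster26866 to cluster44251, a single transcript, stayed between 1.91 and 2.5 in all 18 libraries. The feature cluster652, with 21 transcripts the largest of the 39, and its relative cluster2546, with 10, had their highest pre-spawning level in testis 1 (37.1 and 29.2 CPM) and their highest spawning level in testis 3 (61.5 and 48.4 CPM). They were both low in spawning testis 1, at 2.28 and 2.66 CPM, against post-spawning means of 1.88 and 0.699 CPM. The ratio of cluster2546 to cluster652 nonetheless ran from 0.330 to 1.4 over the libraries. The pair cluster5888 and cluster2648 had spawning levels of 17.7, 7.64 and 34.5 CPM and of 15.7, 8.88 and 24.7 CPM, and the ratio of cluster2648 to cluster5888 ran from 0.214 to 1.16.

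Relatives that were not chosen varied in profile. The stems of the 39 occurred in 250 other features, related to 21 of the 39, and 93 of these had at least 1 CPM in both pre-spawning and spawning testes. After spawning 85 of the 93 were lower than at both earlier stages, and 51 were at most 0.25 of both. Among all 31069 features of that level the shares were 54.3% and 2.54%. These counts used group means alone, without the conditions on steadiness and library overlap, so they include other profiles. In the trio's group cluster27284 had means of 59.9, 1.46 and 0.0903 CPM before, at and after spawning. For cluster10939, a relative of cluster26866, they were 15.4, 246 and 0.891 CPM. The feature cluster70867, removed by the filter on reversed gonad ratios, is also counted. The relatives are not independent of the features they were found through, since reads may be divided between them. They were also unevenly distributed: 23 of the 93 belonged to the trio of cluster42762, where 17 were at most 0.25 of both earlier stages, and 21 belonged to cluster2648 and cluster5888, where 3 were. All 9 relatives of cluster26866 and cluster44251 together were at most 0.25 of both.

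By composition the 39 resembled the background from which they came. Single transcripts made up 12 and clusters 27 (69.2%, against 57.4% of the background and 22.7% of all features). The median number of transcripts was 2 in both the 39 and the background. Clusters of 10 or more transcripts numbered 6, among them cluster1231 with 15, which stood at 19.7, 42.5 and 117 CPM before, 11.7, 11.2 and 110 CPM at and 4.30, 2.98 and 2.41 CPM after spawning.

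The limit of 4-fold divided features of like profile. Just inside it were cluster22673 and cluster19173, with post-spawning means at 0.246 and 0.244 of the lower of the earlier means. The levels of cluster19173 were 19.3, 57.4 and 58.1 CPM before, 16.2, 52.3 and 59.3 CPM at and 8.94, 11.7 and 10.6 CPM after spawning, so that its testis 1 libraries lay well below the others at both earlier stages. Just outside were cluster6005 and cluster4976, at 0.251 and 0.257. At the limit of 10 CPM, cluster24519 was inside with a spawning mean of 10.1 CPM and cluster63905 outside with a pre-spawning mean of 9.98 CPM. The 3 features dropped for a reversed gonad ratio were cluster38055, cluster21494 and cluster70867. Their post-spawning means were 0.0268, 0.726 and 0 CPM, below or near the lowest of the 39, against spawning means of 64.9, 10.6 and 17.5 CPM.

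In ovaries the 39 features were generally less abundant than in the earlier testes. The 9-ovary mean had a median of 4.78 CPM (range 1.55 to 161), against 26.4 CPM for the background features, and the 9-testis mean exceeded it for 36 of the 39, with a median ratio of 3.50. The exceptions were cluster5570, cluster24519 and cluster20280. The ratio by stage had medians of 6.39 before spawning, 4.41 at spawning and 0.680 after spawning, while the background had 1.40, 1.14 and 0.998. Testis was above ovary for 37 and 36 features at the first stages, and below it after spawning for 29. The testis side of these ratios was fixed by the selection. In 30 of the 39 the post-spawning testes lay inside the range of the 9 ovaries. Background shares were not computed for the counts in this paragraph, so they are not read as particular to the 39.

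**Figure D4:**
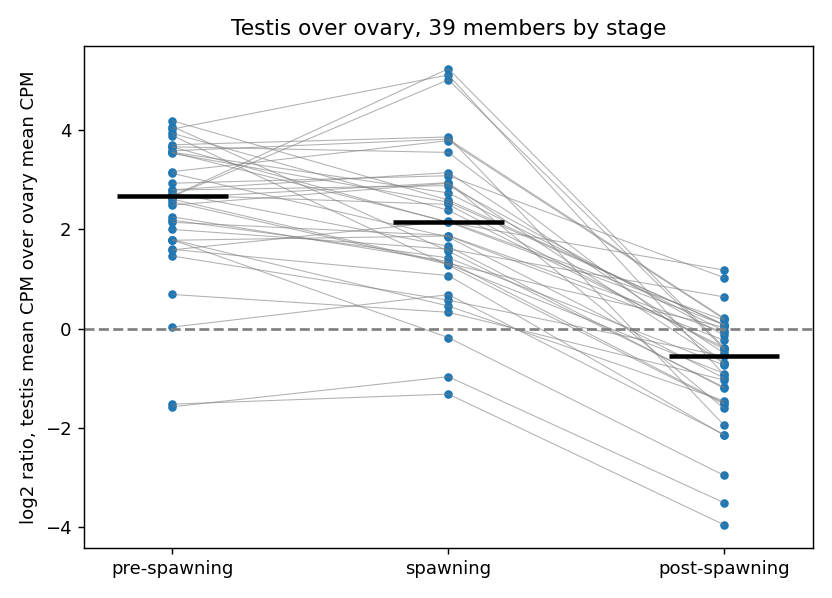
Log2 ratio of the testis mean to the ovary mean at each stage for the 39 features, with a grey line per feature and black bars at the medians. The medians correspond to ratios of 6.39, 4.41 and 0.680 at the pre-spawning, spawning and post-spawning stages.

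The highest testis over ovary ratios were those of cluster42762 (10.1) and cluster49708 (8.84). In ovaries cluster42762 stood at 9.43, 3.70 and 3.36 CPM before spawning, 4.74, 3.22 and 7.38 CPM at spawning and 10.5, 0 and 0 CPM after it. All 3 features of the trio had 0 counts in post-spawning ovaries 2 and 3, which allows up to 0.0646 and 0.0965 CPM. Post-spawning ovary 1 was thus above every ovary of the earlier stages for cluster42762, while the other 2 post-spawning ovaries held none that could be detected at this depth.

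The lowest ratios were those of cluster5570 (0.252), a cluster of 6 transcripts, and cluster24519 (0.309), a cluster of 2. In testes cluster5570 stood at 42.9, 24.1 and 105 CPM before, 24.1, 100 and 32.2 CPM at and 12.1, 13.6 and 10.6 CPM after spawning. In ovaries it reached 243, 131 and 119 CPM before, 135, 101 and 154 CPM at and 337, 86.7 and 139 CPM after spawning, the highest level of any of the 39 there. Testis levels of cluster24519 were 7.39, 16.1 and 14.9 CPM before, 5.22, 12.2 and 12.9 CPM at and 2.23, 1.47 and 2.22 CPM after spawning, and its ovary levels lay between 12.8 and 63.6 CPM with no overlap with the post-spawning testes.

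Whether ovaries showed a stage difference in these features is a question the rule left nearly free, since it used the ovary mean over all stages and the filter on reversed ratios alone. All 39 passed the low-count filter in ovaries. Post-spawning against spawning ovaries, edgeR called 0 of the 39 (0% of all 42501 features). At an unadjusted p under 0.05, 3 were higher (4.08% of all features) and 3 lower (3.06% of all). The median log2 fold change of the 39 was 0.14, against 0.04 over all features and 0.14 over the background features tested. DESeq2 called 1, cluster8729 (1.04% of all). Of the 39, 17 had a negative fold change.

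Post-spawning against pre-spawning ovaries, edgeR again called 0 of the 39 (0% of all), with 0 at an unadjusted p under 0.05 (9.26% of all features) and 0 by DESeq2 (1.03% of all). The median log2 fold change of the 39 was 0.23, against 0.05 over all features and 0.16 over the background features tested. It was 0.53 without pre-spawning ovary 1 and 0.12 without pre-spawning ovary 2. Spawning against pre-spawning ovaries, 0 were called (0% of all), 0 had an unadjusted p under 0.05 (4.92% of all) and 0 were called by DESeq2 (0.207% of all). The median of the 39 was 0.45, against -0.03 over all features and -0.01 over the background features tested. That median ran from 0.10, without spawning ovary 3, to 0.69, without pre-spawning ovary 1, when a library was left out. It was 0.22, 0.21 and 0.24 without pre-spawning ovary 2, pre-spawning ovary 3 and spawning ovary 1. The ovary comparisons share libraries, and their values are not independent of each other. A p that misses the threshold does not show that ovaries did not differ: libraries of a group varied widely, with an edgeR biological coefficient of variation of 64.3% for ovaries and 57.1% for testes.

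**Figure D5:**
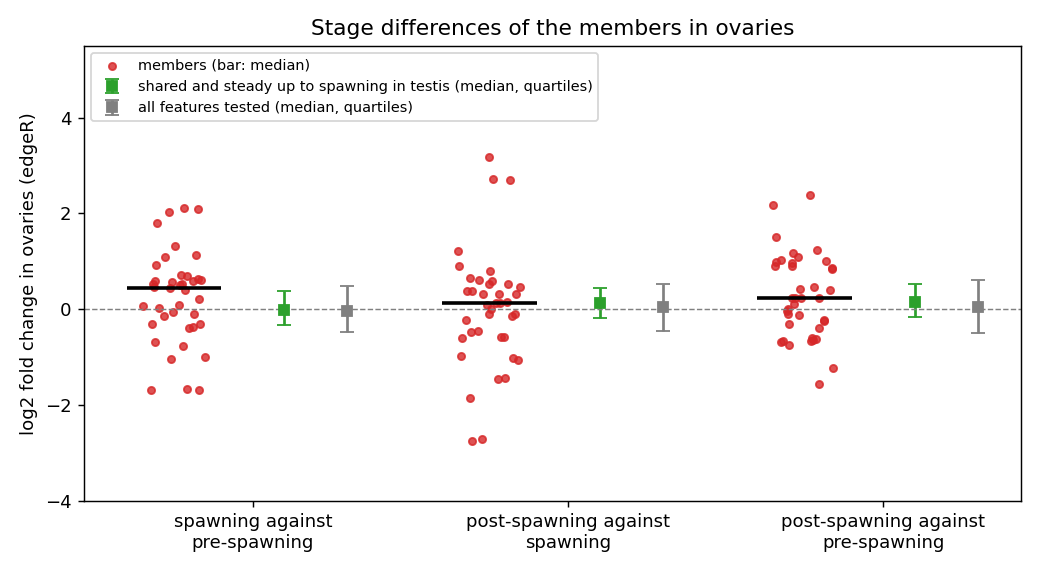
Log2 fold changes of the 39 features in ovaries (red points, black bar at the median) for the 3 stage comparisons, beside the median and quartiles of the background features (green) and of all features tested (grey). Medians of the 39 are 0.45, 0.14 and 0.23, and single features range more widely than the quartiles of either set.

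Library by library, the features that separated the ovary stages were few in each comparison, and nothing is read from counts this small. All post-spawning ovaries were below all spawning ovaries for 4 of the 39, cluster51354, cluster2546, cluster17695 and cluster652 (5% of all features tested), and above them for 3, cluster26866, cluster8729 and cluster44251 (3.64%). Against pre-spawning ovaries none was lower (9.25%) and 2 were higher, cluster8684 and cluster75457 (4.86%). All spawning ovaries were below all pre-spawning ovaries for 2, cluster8729 and cluster8944 (5.1%), and above them for 1, cluster47703 (7.52%). The relatives cluster652 and cluster2546, and cluster26866 and cluster44251, again lay on the same side.

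The ovary feature with the smallest p was cluster8729, a cluster of 5 transcripts. It stood at 14, 2.41 and 2.86 CPM in post-spawning ovaries and 1.5, 0.623 and 0.251 CPM in spawning ovaries, with no overlap, and had a log2 fold change of 3.18 (SE 0.82) with an edgeR adjusted p of 0.592. The next on that side, cluster26866, stood at 18.4, 44.0 and 13.3 CPM in post-spawning and 1.94, 6.30 and 5.40 CPM in spawning ovaries, a log2 fold change of 2.73 (SE 1.13) with an edgeR adjusted p of 0.675. Without post-spawning ovary 1, its highest library, the fold change of cluster8729 was 2.02, and without post-spawning ovary 2 that of cluster26866 was 1.79. Pre-spawning ovaries of cluster26866 were split, at 40.1 CPM in ovary 1 and 2.44 and 1.65 CPM in ovaries 2 and 3.

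On the lower side, cluster51354 stood at 0.822, 0.840 and 2.22 CPM in post-spawning and 2.96, 10.1 and 2.99 CPM in spawning ovaries, a log2 fold change of -1.85 (SE 0.69) with an edgeR adjusted p of 0.651. The feature cluster17695 stood at 2.47, 1.21 and 1.22 CPM in post-spawning and 2.55, 9.05 and 3.66 CPM in spawning ovaries (log2 fold change -1.46, SE 0.59). For both, spawning ovary 2 was the highest library, and without it the fold changes were -1.14 for cluster51354 and -0.87 for cluster17695. Neither passed the threshold.

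Against pre-spawning ovaries the smallest p belonged to cluster8684, at 9.65, 8.75 and 20.9 CPM after and 5.06, 5.42 and 8.70 CPM before spawning, a log2 fold change of 1.09 (SE 0.50) with an edgeR adjusted p of 0.537. Its spawning ovaries, at 20.9, 18.3 and 5.52 CPM, were also higher on average than pre-spawning ovaries (log2 fold change 1.08, SE 0.50). The feature cluster26450 had 27.7 CPM in post-spawning ovary 1 but 0.991 and 1.83 CPM in ovaries 2 and 3, against 2.68, 1.56 and 1.55 CPM before spawning, a log2 fold change of 2.39 (SE 1.21) with an edgeR adjusted p of 0.554. Without post-spawning ovary 1 its fold change turned to -0.34. On the lower side cluster5888 had 5.82, 0.970 and 1.71 CPM after and 16.9, 2.64 and 6.49 CPM before spawning (log2 fold change -1.57, SE 0.74), with overlapping libraries. Without pre-spawning ovary 1 this was -0.64, and without post-spawning ovary 1 it was -2.55.

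Post-spawning ovary 1 was the highest post-spawning ovary for 28 of the 39 (71.8%, against 45.8% in the background), and pre-spawning ovary 1 the highest pre-spawning ovary for 26 (66.7%, against 43.9%). The summed level of the 39 was 748 CPM in post-spawning ovary 1, against 295 and 329 CPM in ovaries 2 and 3, and 411, 208 and 189 CPM without cluster5570. Post-spawning ovary 1 was also the shallowest library, and the part of depth in this difference was not tested. Without that library the median log2 fold change of the 39 was -0.62 for post-spawning against spawning ovaries and -0.36 against pre-spawning ovaries. The first median, 0.14 over all libraries, was also negative without spawning ovary 2 (-0.09), and it was 0.44 without post-spawning ovary 3. Without post-spawning ovary 1 the edgeR calls were 2 lower of 39 against spawning ovaries, cluster41747 (adjusted p = 0.048) and cluster42762 (adjusted p = 0.0366), and 1 lower against pre-spawning ovaries, cluster42762. Over all 44731 features of that fit 12 were called lower in each contrast. Their remaining post-spawning ovaries had 0 counts, so the fitted fold changes are not given.

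With the gonads exchanged, the rule found 10 features lower only in post-spawning ovaries. A rule for a gain of the same size after spawning, with at least 10 CPM in the post-spawning mean, found 4 features in testes and 5 in ovaries. These counts carry no test.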

How the data were processed

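The authors deposited whole-number counts per feature for 18 libraries and a map of transcripts to features. Per the labels' protocols, RNA was extracted with Trizol, depleted of ribosomal RNA with a kit for human, mouse and rat, and made into libraries for Illumina sequencing. Salmon and fastp are named in the submitters' processing notes; their versions, the transcriptome and the clustering are not stated there. Counts may be rounded Salmon estimates.

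CPM was computed from column sums. To look for a library deposited more than once, counts were compared within groups: no pair agreed within sampling noise (chi-square at least 23.6 times its degrees of freedom). This does not show that libraries are separate fish. Stage contrasts were fitted on the 9 libraries of a gonad with edgeR 4.0.16 in R 4.3.3 (TMM, filterByExpr, glmQLFit, glmQLFTest, Benjamini-Hochberg over all features tested, threshold 0.05). The fit was also run on simulated counts that varied less between libraries than the real ovaries. It therefore does not show how the fit performs at the variation seen here. SE was derived from the F statistic. DESeq2 1.42.0, RLE scaling, no filter, all 18 libraries, a season block, other limits in the rule and removal of each library were alternatives. Seasons are labelled as a batch shared by the groups, so the season number pairs libraries. Deviations of same-season libraries correlated between -0.185 and 0.233 in testes and between -0.318 and 0.215 in ovaries. For libraries of different seasons the correlations lay between -0.394 and 0.262 in testes and between -0.322 and 0.363 in ovaries.

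The 39 members and all lists were chosen with earlier results of these data known. Features named were 2 each of the most abundant, the deepest loss, the smallest loss (with 2 just outside), the extremes of gonad ratio, the smallest p in each direction of each ovary contrast and the most transcripts; others named were chosen after their values were seen. Marker lists could not be applied, as no gene names are paired with features. Floors cover counting error only, while the SE of an edgeR fold change also reflects variation between libraries.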

Additional observations from a re-analysis of the deposited data

Results flagged for a closer look

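For 3 of the 39 features every post-spawning ovary lay above every spawning ovary, and for 2 others above every pre-spawning ovary. In testes the selection had set the opposite order for all 39. Against spawning ovaries these were cluster8729 (ovary log2 fold change 3.18), cluster26866 (2.73) and cluster44251 (2.69), and against pre-spawning ovaries cluster8684 (1.09) and cluster75457 (0.91). The difference between the gonads was not tested, since the testis direction was fixed by the selection. With the low-count filter edgeR called none of these ovary changes. With no filter it called cluster26866 (adjusted p = 0.000127), cluster44251 (adjusted p = 0.00361) and cluster8729 (adjusted p = 0.00554), and DESeq2 called cluster8729 (adjusted p = 0.00734). Over all features the unfiltered fit called 1097 of 100952 higher against spawning ovaries, and DESeq2 302 of 42501. The share of all features tested in ovaries with that separation was 3.64% against spawning and 4.86% against pre-spawning ovaries, and cluster26866 and cluster44251 are relatives whose ratio hardly varied. Nothing is read from counts of this size.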

How the results depend on the processing

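The number of features meeting the rule depended on its limits: 39 became 84 at 3-fold and 17 at 6-fold, 78 at 5 CPM and 14 at 20 CPM, 79 without the non-overlap condition, 42 without the ratio filter and 22 with TMM-scaled CPM. Leaving out a testis library gave 19 (without spawning testis 3) to 62 (without spawning testis 1), and 60 without spawning testis 2. Features called of the 39, post-spawning against spawning testes, were 0 in the reported fit, 39 with no low-count filter, 34 with DESeq2, 1 of 42 without the ratio filter, and 0 to 2 when a library was left out (2 without spawning testis 1, cluster51354 and cluster9716). Over all features the unfiltered fit called 2865 lower of 126519, and the fit without spawning testis 1 called 131 lower of 54387. Against pre-spawning testes 8 became 39 with no filter, 28 with DESeq2, 4 with all 18 libraries fitted, and 0 to 20 when a library was left out. There the unfiltered fit called 4968 lower of 126519 features, and the fit of all 18 libraries 505 lower of 53536. In ovaries 0 became 5 with no filter (cluster26866, cluster44251, cluster8729, cluster652 and cluster2546) and 1 with DESeq2 for post-spawning against spawning, and 1 with no filter against pre-spawning, with 0 to 2 and 0 to 1 called when a library was left out. The unfiltered ovary fits called 1761 of all 100952 features against spawning and 2159 against pre-spawning. The reason the unfiltered fit calls more was not tested. With season as a replicate block, edgeR called 6 instead of 8 against pre-spawning testes and 0 in each of the other 4 contrasts. Over all 51080 features tested in testes, the blocked fit called 594 lower against pre-spawning testes, in place of 1518. Against spawning testes it called 2 lower of all features, in place of 9, and in each ovary contrast 0 of all 42501. Among the 39, neither the block nor RLE scaling moved a count of adjusted calls by over 1.5 times. Over all features some counts did move by more. Calls in either direction against spawning testes were 3 with the block and 33 with RLE scaling, in place of 18. Against pre-spawning testes they were 1309 with the block and 3246 with RLE scaling, in place of 3143. Other values did move with the block. Post-spawning against spawning, the median log2 fold change was 0.006 in ovaries and -2.20 in testes. At an unadjusted edgeR p under 0.05, 1 was then higher and 5 lower in ovaries (1363 and 1036 of all 42501 features). The other ovary contrasts had 2 against pre-spawning (3105 of all) and 3 for spawning against pre-spawning (1938 of all). The fold change of cluster26450 in ovaries against pre-spawning turned to -0.34 without post-spawning ovary 1 and reached 2.97 without post-spawning ovary 2. It was the only sign change among the 12 ovary fold changes of named features. In testes all 39 had negative fold changes under every alternative except cluster47703 (0.10) without pre-spawning testis 3. Depth limits features near the floor, mainly in post-spawning ovary 1.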

Other observations

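Among relatives by identifier stem that were not among the 39, the most abundant reached very high levels in a single library. They were chosen after their values were seen. The feature cluster1227, a relative of cluster1231, stood at 209, 670 and 951 CPM in pre-spawning testes, 209, 344 and 12159 CPM in spawning testes and 24.8, 32.6 and 34.2 CPM in post-spawning testes. Another relative of cluster1231, cluster106, made of 44 transcripts, stood at 173, 480 and 778 CPM, 176, 279 and 8598 CPM, and 22.2, 28.2 and 30.5 CPM at the same stages. A relative of cluster26866, cluster22252, stood at 87.3, 161 and 255 CPM, 85.9, 90.7 and 5588 CPM, and 13.6, 18.9 and 22.4 CPM. Spawning testis 3 was far above every other library for these 3 features, and all 3 were lower in each post-spawning testis than in every earlier testis. In ovaries the level of cluster1227 was 192 CPM in pre-spawning ovary 1, against 16.8 and 12.2 CPM in pre-spawning ovaries 2 and 3, 19.6 to 53.4 CPM in spawning ovaries and 105 to 115 CPM in post-spawning ovaries. Whether reads of these abundant features contribute to the counts of cluster1231 and cluster26866 was not tested.

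A smaller difference was seen for cluster4107, a relative of cluster2607, at 107, 118 and 101 CPM before, 106, 104 and 112 CPM at and 75.3, 81.5 and 74.0 CPM after spawning. Every post-spawning testis was below every earlier testis for it too, and it was also chosen after its values were seen. Not all relatives separated so: cluster5557, a relative of cluster19173, stood at 145 CPM in post-spawning testis 1 and 134 CPM in pre-spawning testis 1. The share of all features with such a separation of testes was not computed, for cluster4107 or for the relatives above.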
